A study of Drosophila melanogaster with 4 samples.

Results

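The regions described here are the H3K36me2 clusters of chromosome 4 and of the centromere-proximal ends of arms X, 2L, 3L and 3R in ML-DmBG3-c2 cells, a cultured Drosophila melanogaster line from the larval central nervous system. A cluster is a region that the authors' caller named as enriched. Members were chosen by position alone, as every enriched cluster of the combined list on chromosome 4, or with its midpoint in the last 2 Mb before the centromere-side end of X, 2L or 3L, or in the first 2 Mb of 3R. This gave 429 of 6396 clusters, or 6.71%. Chromosome 4 held 93 of them, proximal 3R 132, proximal 2L 87, proximal 3L 60 and proximal X 57. The same windows held 371 of 5554 clusters in the list of ChIP replicate 1 and 390 of 5583 in that of ChIP replicate 2. The file headers place all coordinates on FlyBase r5.

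H3K36me2 is histone H3 dimethylated at lysine K36. In flies it is placed by the methyltransferases Mes-4 and Ash1, it is known mainly from transcribed genes, and trimethylation of the same residue by Set2 follows elongating RNA polymerase. Chromosome 4 is a small autosome whose genes sit among repeats and carry the heterochromatin protein HP1a and the chromosome-specific protein POF. The ends of the large arms near the centromere are where gene-rich euchromatin passes into pericentric heterochromatin, so genes there also lie in repeat-rich surroundings.

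The study mapped this mark by chromatin immunoprecipitation and sequencing (ChIP-seq) in 4 samples, 2 ChIP and 2 input DNA, without any treatment. All samples came from the same line, with the genotype y v f mal and the sex given as unknown. Flasks were combined before fixation with formaldehyde, and the labels give a crude mouse monoclonal antibody. The titles define the groups, although the description field calls ChIP replicate 1 input DNA and names both kinds of DNA for input replicate 1 and ChIP replicate 2. Each ChIP replicate had its own list and another list combined the replicate set. Each list gives a start, an end and the authors' score, with a scale that the sources used here leave unstated. Read depth was unknown. With 2 ChIP samples, an exact two-sided permutation over samples could not give a p below 0.5. No test was run, and differences are set against the spread between the replicates. Nothing says that these came from separate cultures, so that spread may be technical.

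Chromosome 4 was the most covered of the 5 regions. Clusters covered 38.0% of it in replicate 1 and 39.4% in replicate 2, or 38.7% ± 0.922 (SD, n = 2). The 5 large arms together were covered over 20.8% and 19.9%. The difference was 18.4 ± 1.52 percentage points, with chromosome 4 higher in each replicate. It had 84 clusters in replicate 1 and 87 in replicate 2, which is 63.2 ± 1.57 per Mb against 43.7 ± 0.226 on the arms (SD, n = 2). Its clusters were also longer, with a mean of 6123 bp (replicate 1) and 6115 bp (replicate 2), whereas the arms had 4768 bp and 4540 bp. The covered share was thus 1.90 ± 0.101 times that of the arms, with 1.45 ± 0.028 times as many clusters per Mb and 1.32 ± 0.044 times the mean length (SD, n = 2).

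Chromosome 4 was more covered on its centromere side. Split at its midpoint, it was covered over 46.7% in replicate 1 and 47.9% in replicate 2 towards the centromere, and over 29.4% and 30.8% towards the tip. In steps of 100 kb from the centromere side, the stretch from 300 to 400 kb stood highest, with 68.4% and 72.4%, followed by 400 to 500 kb with 66.4% and 65.0%. The first 200 kb were also above 50% in each replicate, and so was the stretch from 900 to 1000 kb, with 56.1% and 56.9%. The least covered stretch ran from 700 to 800 kb, with 17.5% and 17.2%. Of 14 steps, 12 lay above the share of the large arms in each replicate. The largest disagreement between the replicates was 9.38 percentage points, from 600 to 700 kb. Chromosome 4 had no stretch of 100 kb or more without a cluster in any list. Its longest was 79.6 kb, from 716714 to 796309, while such stretches took up 30.0% of the 5 large arms.

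**Figure D1:**
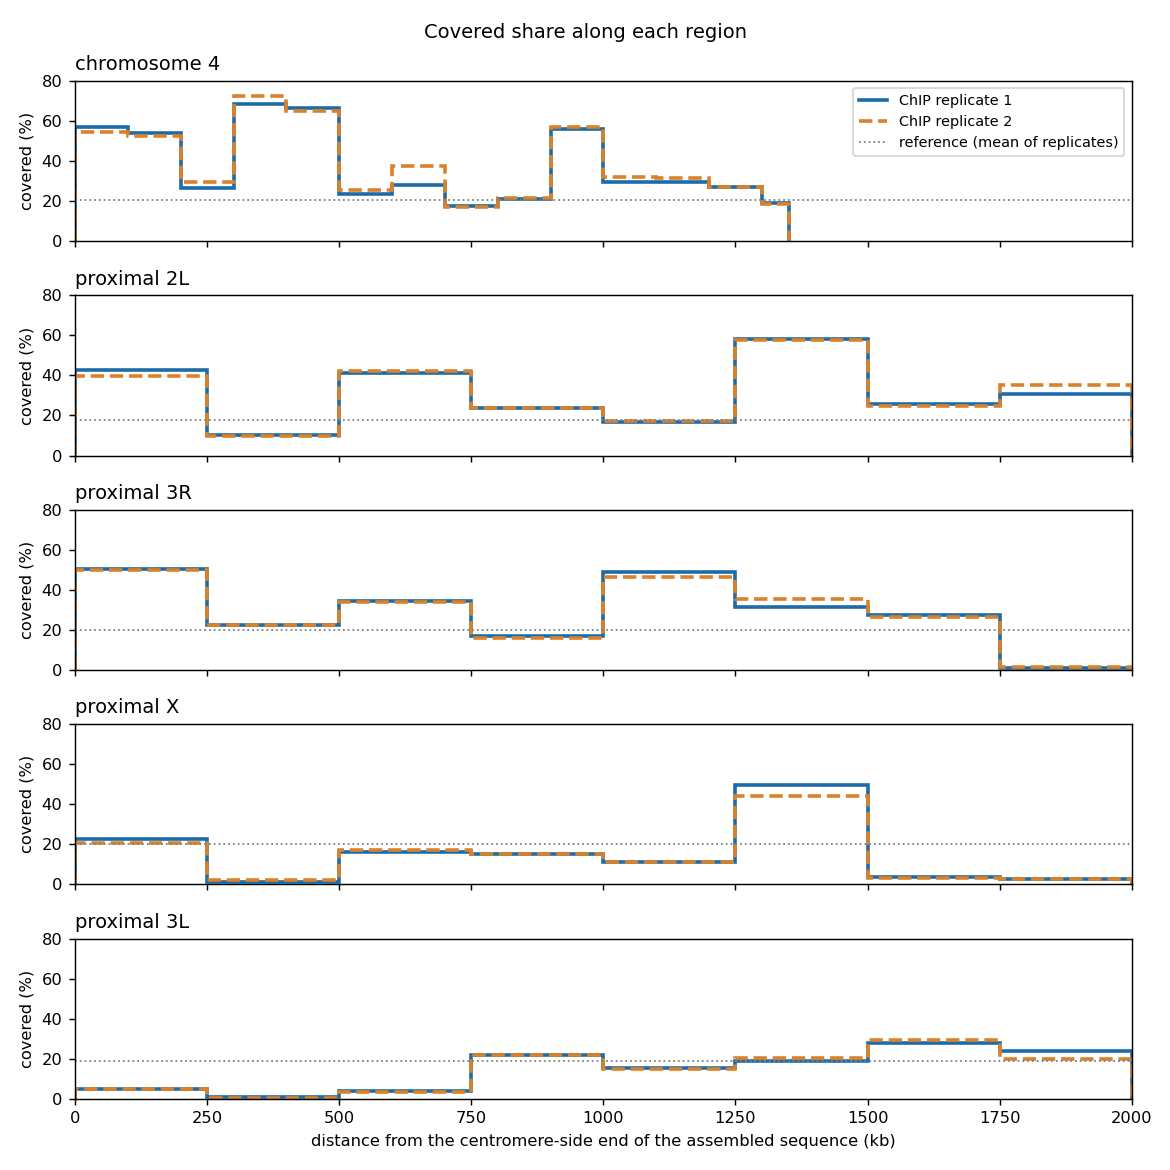
Covered share (%) along each region, in steps of 100 kb on chromosome 4 and of 250 kb in the windows, against distance from the centromere-side end of the assembled sequence (kb). Solid and dashed lines are ChIP replicates 1 and 2, and the dotted line is the mean share of the reference (the 5 large arms for chromosome 4, the rest of the arm for a window); 3L stayed below 5% over its first 750 kb, whereas the first 250 kb of 3R were covered over about 50%.

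The highest-scoring chromosome 4 clusters found in both replicates lay in its centromere-side part. The cluster from 90149 to 98243 (8.1 kb) scored 2.68 in replicate 1 and 2.77 in replicate 2, and that from 311257 to 329242 (18.0 kb) scored 2.75 and 2.78. The cluster from 101478 to 133493 (32.0 kb) consisted of 2 clusters in each replicate list, of which the larger, 22984 bp and 22742 bp long, scored 2.72 and 2.78. The longest cluster of the chromosome ran over 43.1 kb from 891571 to 934625 and was likewise 2 clusters in each replicate, the larger scoring 2.20 and 2.29. After the 32.0 kb cluster, the next by length was one of 28.1 kb from 39063 to 67189, which was a single cluster in each replicate and scored 2.06 and 1.86. Above all of these by combined score (3.15) stood a 2.2 kb cluster from 36147 to 38334, which had a replicate 1 counterpart at 2.70 and none in replicate 2.

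Proximal 2L, from 21011545 to 23011544, was the most covered of the 4 windows. Its covered share was 31.2% in replicate 1 and 31.3% in replicate 2, against 18.4% and 17.6% over the rest of 2L, a difference of 13.3 ± 0.627 percentage points (SD, n = 2). The number of clusters did not separate the window from the arm: there were 38.5 and 40.0 per Mb inside and 40.3 and 39.8 outside, and these values overlapped. Length did. The mean cluster measured 8115 bp and 7839 bp inside and 4568 bp and 4417 bp outside, or 1.78 ± 0.0013 times as much (SD, n = 2). Among 57 blocks of 2 Mb counted from the centromere-side end of each large arm, this one ranked 1 by mean cluster length, 2 by covered share and 41 by number of clusters. The first 2 Mb of 2R, which are not among the members, ranked 1 by covered share with 36.8% ± 0.321 (SD, n = 2) and 2 by mean length. They shared this pattern, with a mean length 1.74 ± 0.011 times that of the rest of 2R (SD, n = 2). Clusters numbered 46.0 and 50.0 per Mb there, against 49.4 and 50.6 on the rest of 2R.

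Coverage on proximal 2L did not fall steadily with distance from the centromere. The stretch from 1250 to 1500 kb was covered over 58.4% in replicate 1 and 57.9% in replicate 2, the first 250 kb over 42.7% and 39.7%, and the stretch from 250 to 500 kb over 10.3% and 9.58%. Its longest cluster, 47.0 kb from 21262773 to 21309822, was also the highest in score among those found in both replicates. It was a single cluster in each replicate with scores of 2.91 and 2.97. Next by length were 42.9 kb from 21697410 to 21740315, with lower scores of 1.45 and 1.82, and 35.1 kb from 22130690 to 22165752, with scores of 2.74 and 2.71. Close to the end of the assembled arm, an 18.2 kb cluster from 22819076 to 22837251 scored 2.75 and 2.77. Nearer still to that end, a cluster of 17.3 kb from 22984518 to 23001847 was 3 clusters in replicate 1 and 4 in replicate 2, and its largest pieces scored 3.56 and 3.28. In contrast, 274.3 kb from 21838041 to 22112315 held no cluster in any list.

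Proximal 3R, from 1 to 2000000, was also more covered than the rest of its arm, with more clusters per Mb and a smaller difference in their length. Covered shares were 29.2% in replicate 1 and 29.0% in replicate 2, against 20.5% and 19.9% outside, a difference of 8.89 ± 0.337 percentage points (SD, n = 2). Clusters numbered 55.5 and 58.5 per Mb inside and 42.5 and 43.3 outside. Mean length was 5259 bp and 4955 bp inside and 4827 bp and 4584 bp outside, so the factor was 1.33 ± 0.033 for number and 1.09 ± 0.0061 for length (SD, n = 2). The first 250 kb were covered over 50.7% and 49.9%, and the stretch from 1000 to 1250 kb over 48.8% and 46.4%. The outermost 250 kb were covered over 1.16% and 1.24%, with 1 cluster in each list. After that cluster a stretch with no cluster in any list began at 1833559, passed the edge of the window and ended at 2166976, 333.4 kb in all.

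The 3 highest-scoring clusters of proximal 3R found in both replicates differed by at most 0.06 between the replicates. The 15.5 kb cluster from 1062014 to 1077490 scored 2.86 and 2.90, the 13.2 kb cluster from 736707 to 749902 scored 2.90 and 2.90, and the 19.4 kb cluster from 1099058 to 1118442 scored 2.73 and 2.79. The longest were 31.7 kb from 101853 to 133516 (2.06 and 2.17), 27.2 kb from 509906 to 537143 (2.35 and 2.62) and 22.6 kb from 752112 to 774706 (2.36 and 2.50). Each of these 6 was a single cluster in each replicate.

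Proximal X, from 20422828 to 22422827, was less covered than the rest of X. Covered shares were 15.3% in replicate 1 and 14.6% in replicate 2, against 21.0% and 19.6% outside, a difference of -5.35 ± 0.534 percentage points (SD, n = 2). Among the highest 50% of scores it was -3.33 ± 0.063. The window ranked 47 of the 57 blocks of 2 Mb by covered share. It was not the lowest of its arm, since the block from 4422828 to 6422827 was covered over 12.4%. The window held 25.5 and 27.0 clusters per Mb, against 45.0 and 44.2 on the rest of X. Mean length, by contrast, was higher inside, at 5987 bp and 5408 bp against 4667 bp and 4433 bp. That difference rested mostly on a single domain. The longest cluster, 76.4 kb from 21074382 to 21150818, was also the longest of all 6396 in the combined list. It was 1 cluster of 76583 bp in replicate 1 (score 1.97) and 5 clusters in replicate 2, the largest of 47348 bp (score 1.49). Without the longest cluster of each replicate list, the mean length in the window was 4596 ± 29.0 bp and the rest of X, with all its clusters, stood at 4550 ± 165 bp (SD, n = 2). By replicate the directions differed, with 4576 bp against 4667 bp in replicate 1 and 4617 bp against 4433 bp in replicate 2. In replicate 2 only the largest of the 5 clusters of the domain was left out.

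The domain also made the peak in the profile of proximal X. The 250 kb around it, from 1250 to 1500 kb from the centromere-side end, were covered over 49.6% and 44.3%, and only the first 250 kb (22.5% and 20.8%) also exceeded the rest of X in each replicate. The 3 stretches from 250 to 500 kb, from 1500 to 1750 kb and from 1750 to 2000 kb were each covered over less than 4%. Cluster-free stretches of 100 kb or more numbered 6, counting those clipped at its edges, and took up 51.7% of the window, the highest share of the 5 regions. The longest, 249.7 kb, ran from 21599549 to 21849280. The 51.7% is a share of the full assembled length, and the treatment of reads that match several places is not stated. A second long cluster, 33.3 kb from 22223201 to 22256503, scored 1.97 in replicate 1 and 1.61 in replicate 2, where it was split into 2. The highest scores found in both replicates belonged to shorter clusters, namely 8.3 kb from 21246601 to 21254947 (2.85 and 2.89), 11.4 kb from 20944739 to 20956145 (2.27 and 2.31) and 11.7 kb from 21858235 to 21869907 (2.32 and 2.15).

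Proximal 3L, from 22543558 to 24543557, resembled proximal X in cluster number and covered share. It was covered over 14.7% in replicate 1 and 14.4% in replicate 2, against 19.6% and 18.7% on the rest of 3L, a difference of -4.56 ± 0.441 percentage points (SD, n = 2). It was -1.05 ± 0.923 among the highest 50% of scores and -11.4 ± 0.499 with a window of 1 Mb. Proximal 3L ranked 48 of the 57 blocks of 2 Mb by covered share. Lower on the same arm were the blocks from 12543558 to 14543557 (12.4%) and from 4543558 to 6543557 (7.64%). Clusters numbered 24.0 and 26.0 per Mb inside and 44.0 and 44.0 outside. Mean length was 6134 bp and 5549 bp inside and 4449 bp and 4249 bp outside. Here the longest cluster held only 8.46% and 8.57% of the covered sequence, and mean length without it was still 5454 ± 397 bp (SD, n = 2). The low coverage lay mainly on the centromere side. The inner 1 Mb was covered over 7.89% and 7.70%, with 13 clusters in each replicate. The outer 1 Mb was covered over 21.6% and 21.2%, with 35 and 39 clusters.

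The innermost 750 kb of 3L held 4 clusters in each replicate list. Covered shares there were 4.93% and 4.84% in the first 250 kb, 0.700% and 0.564% in the next and 3.85% and 3.64% in the one after. These are shares of the full assembled length, and the treatment of reads that match several places is not stated. A stretch of 274.2 kb from 23747331 to 24021560 held no cluster in any list. Outside it, the highest-scoring clusters found in both replicates were also long. They ran over 18.4 kb from 22903260 to 22921627 (2.91 and 2.76), 24.9 kb from 23120192 to 23145108 (2.38 and 2.41) and 18.1 kb from 23668648 to 23686761 (2.43 and 2.24). The longest, 25.1 kb from 23306629 to 23331728, scored 2.25 and 2.27. All 4 were single clusters in each replicate.

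**Figure D2:**
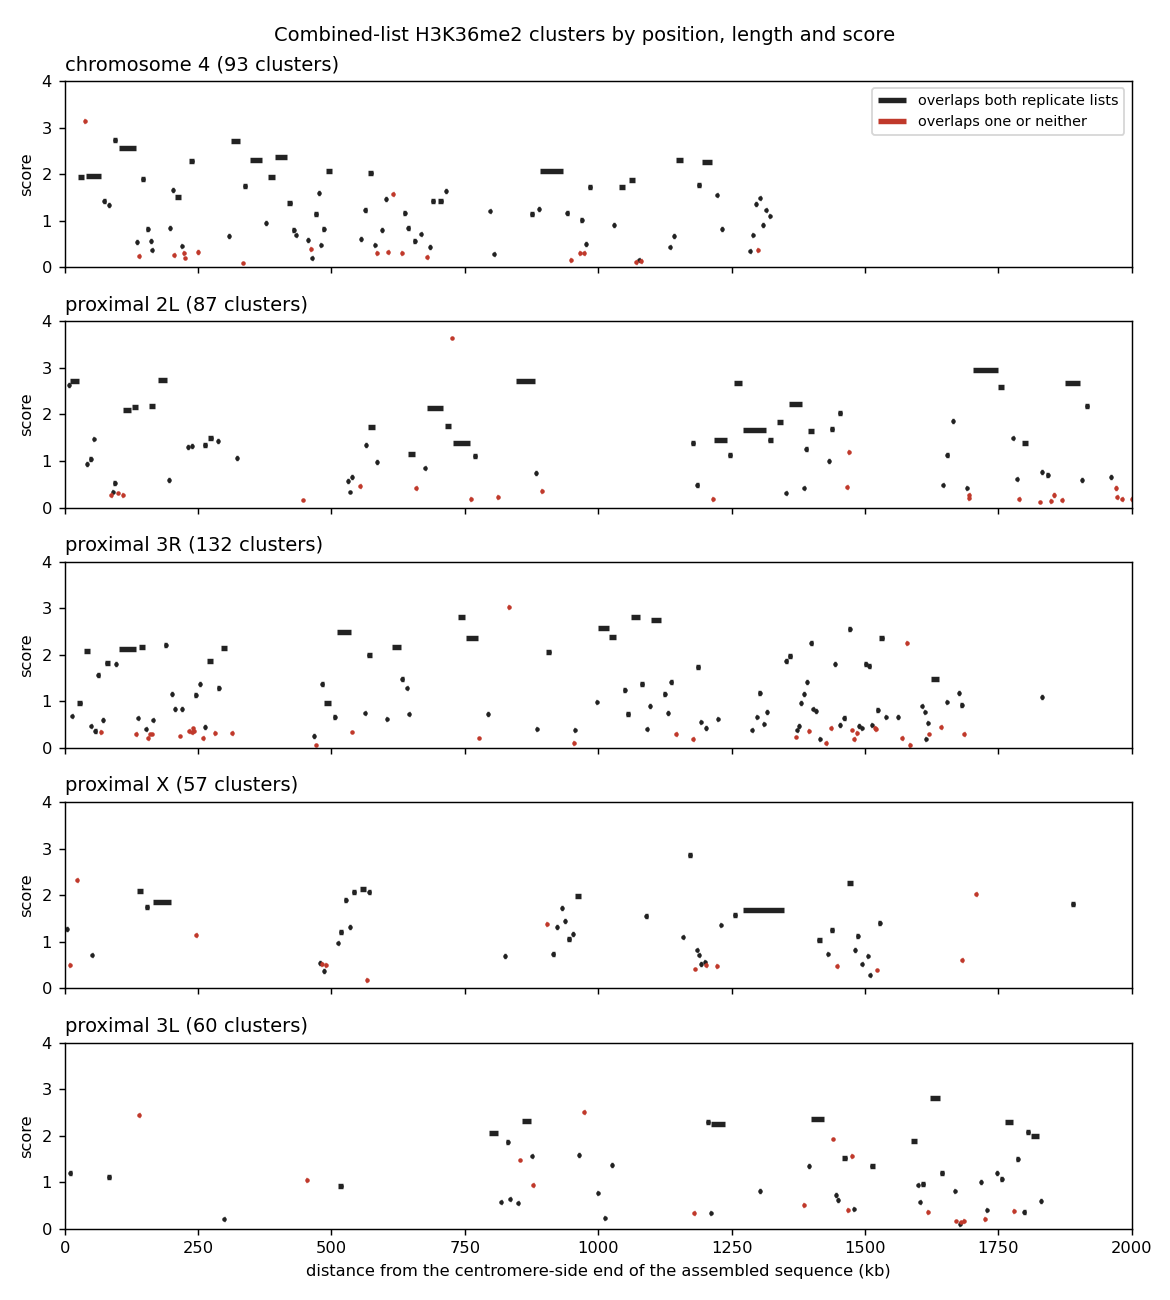
Each combined-list cluster of the 5 regions as a bar spanning its position, by distance from the centromere-side end of the assembled sequence (kb), at the height of the authors' score. Black clusters overlap both replicate lists and red ones overlap one or neither; the red ones are mostly low in score, with short high-scoring exceptions such as the 1.1 kb cluster at 3.64 on proximal 2L.

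Set side by side, the regions fell into an upper and a lower group by covered share. The order was chromosome 4 (38.7% ± 0.922), proximal 2L (31.3% ± 0.052), proximal 3R (29.1% ± 0.146), proximal X (14.9% ± 0.471) and proximal 3L (14.6% ± 0.208; SD, n = 2 for each). The replicate values of X and 3L overlapped, and those of every other pair of neighbours did not. The order by clusters per Mb was different, with chromosome 4 (63.2 ± 1.57) and 3R (57.0 ± 2.12) well above 2L (39.3 ± 1.06), and X (26.3 ± 1.06) and 3L (25.0 ± 1.41) lowest. By mean length 2L stood first, at 7977 ± 195 bp, followed by chromosome 4 at 6119 ± 5.99 bp, 3L at 5842 ± 414 bp, X at 5698 ± 410 bp and 3R at 5107 ± 216 bp (SD, n = 2). Mean length was above its reference in each of the 5 regions and in each replicate, including the 2 windows with low coverage. On X in replicate 1 this rested on the longest cluster, without which the mean was 4576 bp against 4667 bp.

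**Figure D3:**
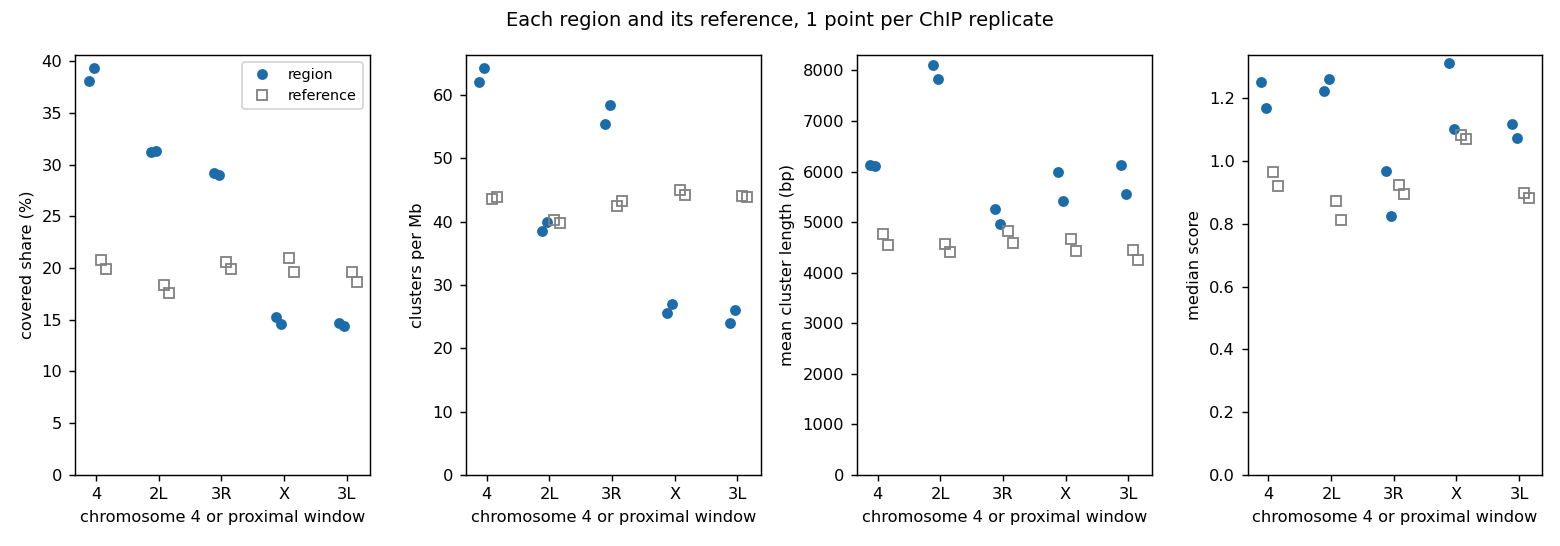
Covered share (%), clusters per Mb, mean cluster length (bp) and median score in chromosome 4 and the 4 proximal windows (filled circles) and in their references (open squares), with 1 point per ChIP replicate. Clusters per Mb lie above the reference for chromosome 4 and 3R, at it for 2L and below it for X and 3L. Mean length lies above its reference in every region, on X in replicate 1 only through the longest cluster.

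Broad clusters made up different shares of the 5 regions. In the combined list, 22 of 87 members on proximal 2L measured 10 kb or more (25.3%), as did 15 of 93 on chromosome 4 (16.1%), 8 of 60 on 3L (13.3%), 15 of 132 on 3R (11.4%) and 5 of 57 on X (8.77%). Over all combined-list clusters the share was 9.21%. On X the replicate lists went opposite ways, with 5.88% inside against 8.16% outside in replicate 1, and 12.96% against 7.65% in replicate 2. All 65 of these long members overlapped both replicate lists, as did 99.7% of such clusters in the whole combined list. In the replicate lists, clusters of at least 10 kb held 62.0% and 60.5% of the covered sequence of proximal 2L, against 30.7% and 28.0% on the rest of 2L. In the first 2 Mb of 2R, outside the members, they held 66.1% and 64.4%, against 29.7% and 27.4% on the rest of 2R. On 3L they held 47.6% in each replicate, against 24.7% and 22.3% outside. On chromosome 4 they held 40.5% and 44.6%, against 32.6% and 31.0% on the large arms. On 3R they held 37.8% and 40.1%, against 35.6% and 34.1% outside. On X they held 39.7% and 43.1%, against 29.6% and 28.4% outside, from only 3 and 7 clusters. The longest of these alone held 25.1% and 16.2% of the covered sequence of the X window.

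Median length exceeded the reference in each replicate on chromosome 4, 2L and X, and not on 3L or 3R. It was 3908 bp and 4223 bp on chromosome 4 against 3065 bp and 2884 bp on the arms, and 4258 bp and 3853 bp on proximal 2L against 3041 bp and 2868 bp on the rest of 2L. On X it was 3226 bp and 3225 bp against 3094 bp and 2942 bp. On 3L the replicates went opposite ways, with 3942 bp against 3174 bp in replicate 1 and 2890 bp against 2972 bp in replicate 2. On 3R they also did, with 2929 bp against 2943 bp and 2959 bp against 2810 bp.

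**Figure D4:**
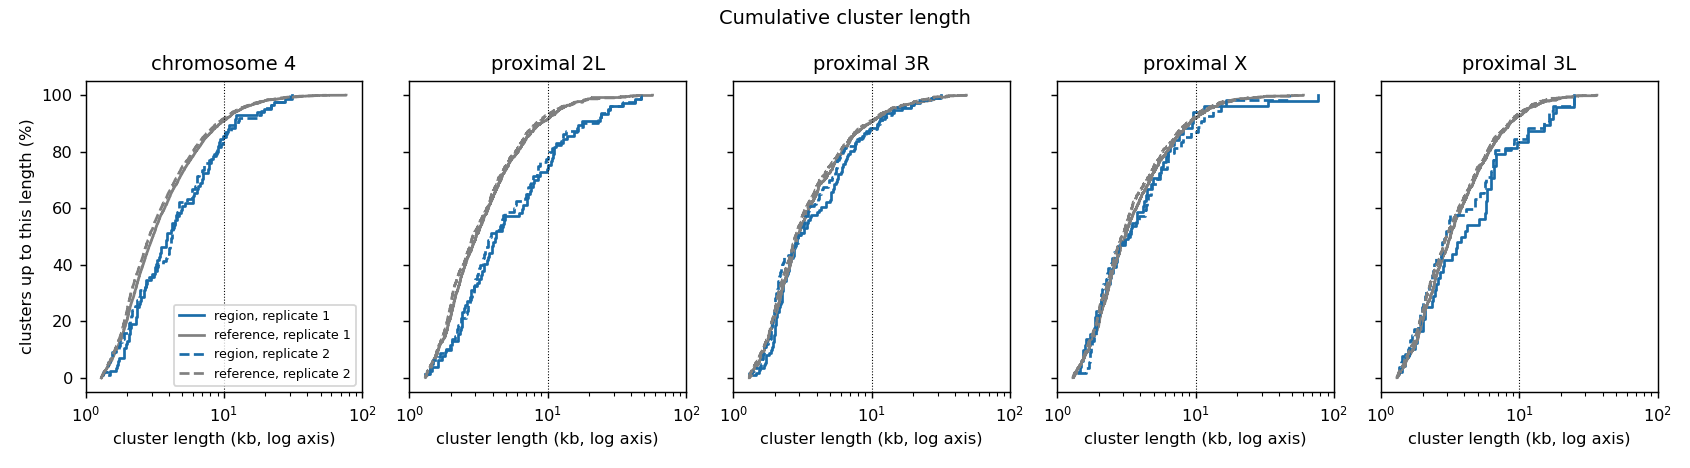
Cumulative share of clusters (%) by length (kb, log axis) in each region (blue) and its reference (grey), for ChIP replicate 1 (solid) and 2 (dashed); the dotted line marks 10 kb. The blue curves lie to the right of the grey ones on chromosome 4 and proximal 2L at nearly all lengths, and on proximal 3L mainly among the longer clusters.

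Median scores were higher than in the reference on chromosome 4, 2L, 3L and X in each replicate, though on X only slightly in replicate 2. On chromosome 4 the median was 1.25 in replicate 1 and 1.17 in replicate 2, against 0.97 and 0.92 on the large arms. On proximal 2L it was 1.22 and 1.26, against 0.87 and 0.81 on the rest of the arm, the largest difference of the 5 (0.40 ± 0.07; SD, n = 2). On 3L it was 1.12 and 1.07, against 0.90 and 0.88. On X the values were 1.31 and 1.10 against 1.09 and 1.07, and that difference (0.13 ± 0.14) was smaller than its spread between replicates. On 3R, 0.97 and 0.83 stood against 0.92 and 0.89, in opposite directions. Among the highest 50% of scores, a cut on the compared value itself, the mean difference changed sign on 3L and 3R. It was -0.0732 ± 0.110 on 3L and 0.155 ± 0.0224 on 3R (SD, n = 2), where it had been -0.0111.

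Score rose with length within each region, with Spearman's rho across clusters between 0.71 and 0.91 in the replicate lists. Clusters of one region share a library and a neighbourhood, so these values are descriptions. When clusters were split into 3 length classes at the terciles of each replicate list, the higher median of chromosome 4 was not seen in any class in both replicates. Its difference from the arms was -0.02 and -0.05 among short clusters, -0.14 and 0.05 in the middle class and -0.01 and -0.05 among long ones. On proximal 2L the differences were -0.10 and 0.01, -0.10 and 0.03, and 0.10 and -0.01. Proximal X was above the rest of X among short clusters (0.05 and 0.04) and in the middle class (0.12 and 0.12), with 12 to 19 clusters in each of these classes per replicate. On 3L only the short and long classes had 1 sign in both replicates, with 0.01 and 0.02 for short and 0.05 and 0.28 for long clusters. On 3R no class did so, and the differences ran from -0.03 to 0.11.

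The replicates marked much the same sequence in each region. The Jaccard index, which is the sequence covered in both divided by that covered in either, was 89.9% on chromosome 4, 89.6% on proximal 3L, 89.3% on proximal 2L, 86.1% on proximal X and 85.4% on proximal 3R, against 82.4% on the rest of the 5 arms. For pairs of clusters with the largest overlap in both directions, the median distance between starts ranged from 98.5 bp on chromosome 4 (76 pairs) to 129 bp on X (45 pairs). Most members overlapped a cluster in both replicate lists: 74 of 93 on chromosome 4 (79.6%, 95% Wilson interval 70.3 to 86.5%), 43 of 57 on X (75.4%), 97 of 132 on 3R (73.5%), 44 of 60 on 3L (73.3%) and 63 of 87 on 2L (72.4%). Over all combined-list clusters the share was 73.4%, which lay inside the interval of each region. Since the combined list was made from these replicates as a set, the overlaps are not independent of it, and the intervals cover counting error only.

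Members found in neither replicate were short, but some scored high. They numbered 7 on chromosome 4, 6 on X, 7 on 2L, 17 on 3R and 11 on 3L, or 48 in all (11.2%, against 10.4% of the whole combined list). On 3L the share was 18.3% (95% Wilson interval 10.6 to 29.9%), and the median score of those 11 was 1.04, against 0.33 for all 664 such clusters of the list. The highest score of proximal 2L belonged to such a cluster, 1.1 kb from 22285419 to 22286495 with a combined score of 3.64, and so did that of proximal 3R, 2.2 kb from 831373 to 833572 with 3.02. On proximal 3L, 2 of the 3 highest-scoring members were such clusters. They ran from 23568619 to 23570697 (2.52) and from 24403109 to 24404323 (2.44). Of the 48, 30 (62.5%) fell below 1301 bp, the minimum length in both replicate lists, against 54.8% of such clusters in the whole list. The sources used here do not state how the authors combined the replicates.

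The window edges mostly fell between clusters. The nearest members inside the edge were 20528966 to 20535676 on X (score 1.81), 21010856 to 21012413 on 2L (0.19), 22712157 to 22715794 on 3L (0.59) and 1830452 to 1833548 on 3R (1.09). The nearest clusters outside were 20386837 to 20391666 on X (2.18), 21001606 to 21003093 on 2L (0.25), 22465168 to 22467111 on 3L (0.36) and 2166977 to 2170821 on 3R (1.22). Only on 2L did a cluster cross the edge.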

How the data were processed

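The 3 deposited region lists were made by the authors, on FlyBase r5 per the file headers, with 1 list per ChIP replicate and another for the replicate set. The deposited score is the authors' value per region. Bowtie 0.12.7 is named in the submitters' processing notes. The sources used here do not state the caller, its threshold, the input used, the treatment of reads that match several places or the depth. Regions named as depletion in the combined list (16, of which 2 in these regions) were left out. Genes and sequences were not used here, because the gene table at hand is on another build.

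Computation used Python 3.11.15, numpy 2.4.6, pandas 2.3.3, SciPy 1.17.1 and matplotlib 3.10.9. Clusters were assigned by midpoint. The covered share is the sequence inside clusters, clipped at the region's ends, divided by region length. Overlap counted from 1 bp. The reference was the rest of the same arm or, for chromosome 4, the 5 large arms. Values are means ± SD of 2 ChIP replicates, with no test. Coverage and overlap functions were tested on simulated clusters. Named regions were, in each region, the 3 highest-scoring and 3 longest members covered over at least 50% in both replicates, the longest cluster-free stretch, and the members at each edge; the top-scoring members absent from a replicate were added after their values were seen. Members, rules and comparisons were chosen with earlier results of these data known. Alternatives were the highest 50% of scores, windows of 1 Mb, the combined list, merging of clusters under 1 kb apart, stricter overlap, a minimum length, keeping depletion regions and leaving out each replicate.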

Additional observations from a re-analysis of the deposited data

Results flagged for a closer look

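The 4 proximal windows went opposite ways against the rest of their own arms in each replicate. The difference in covered share was -5.35 percentage points on X, -4.56 on 3L, 13.3 on 2L and 8.89 on 3R. On 3L it was -1.05 ± 0.923 (SD, n = 2) among the highest 50% of scores and -11.4 with windows of 1 Mb, and on X -3.33 among the highest 50%. The differences between arms were not tested, and each arm offers a single window. On both X and 3L, a block of 2 Mb elsewhere on the arm was less covered than the window. The first 2 Mb of 2R are not among the members. Their covered share was 14.8 ± 0.88 percentage points above that of the rest of 2R (SD, n = 2), higher in each replicate.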

How the results depend on the processing

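No paired analysis was possible because the input samples, which share replicate numbers with the ChIP samples, have no list of their own. The differences in covered share kept their direction under each alternative run for them: the highest 50% of scores, the combined list, merging, each replicate alone and, for the 4 windows, 1 Mb. With the highest 50% of scores they were 16.5 percentage points on chromosome 4, -3.33 on X, 14.8 on 2L, -1.05 on 3L and 6.94 on 3R. With windows of 1 Mb they were -6.26 on X, 10.4 on 2L, -11.4 on 3L and 10.4 on 3R, and with the combined list -6.55 on X, -5.49 on 3L and 9.89 on 3R. The cause of shifts was not tested. Differences in median score among the highest 50% of scores were 0.0836 on chromosome 4, 0.0545 on 2L, -0.0732 on 3L and 0.15 on 3R. This cut acts on the compared value, so it is a limited check of their stability. It turned the direction on 3L, with an SD of 0.110 (n = 2). On 3R it also turned the direction, from -0.0111 ± 0.0824 to 0.155 ± 0.0224 (SD, n = 2). Windows of 1 Mb gave 0.33 on X and 0.24 on 3L, and the combined list gave 0.18 on chromosome 4, 0.28 on X, 0.28 on 3L and, with the direction turned, 0.0306 on 3R. Over single replicates 3R ranged from -0.0694 to 0.0472. Differences in median length were 1644 bp on chromosome 4, 443 bp on X, 2608 bp on 2L and 636 bp on 3R with the highest 50% of scores. With windows of 1 Mb they were 609 bp on X, 712 bp on 2L, 1877 bp on 3L and 361 bp on 3R. Merging gave 657 bp on X, 1649 bp on 2L and 1428 bp on 3L, and the combined list gave 1319 bp on 2L. Over single replicates the difference ranged from -82.5 to 768 bp on 3L and from -14 to 149.5 bp on 3R, so the sign there rests on one replicate. The share of members in both replicate lists was 96.4% on chromosome 4, 88.6% on X, 95.9% on 2L, 81.1% on 3L and 96.8% on 3R among the highest 50% of combined scores, against 96.5% of all combined-list clusters there, and 80.8% on 3R without members shorter than any replicate cluster. Against a single replicate it ranged from 83.9 to 88.2% on chromosome 4, from 81.6 to 82.8% on 2L and from 78.8 to 81.8% on 3R. Depth is unknown, so an absent cluster means only that no region passed the authors' threshold.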

Other observations

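The combined list names 16 regions as depletion, of which 1 lay on chromosome 4, from 950123 to 951591, and 1 on proximal 3R, from 1293117 to 1294608. Their combined scores were -0.01 and -0.03. Each overlapped a replicate 2 cluster named as enrichment, with scores of 0.04 and 0.07, and none of replicate 1.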
